A study of Mus musculus with 8 samples.

Results

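The Wnt ligands, their receptors, secreted antagonists, intracellular components and feedback genes were followed in the mouse corpus callosum after 1 week of cuprizone. A list of 39 genes was looked up by symbol among transcript clusters, the probe groups of the array that stand for one transcript, that carry exactly 1 gene symbol. For 38 of them such a cluster was found, out of 23410 clusters with a gene name in all. Tcf7 was not analysed here. A gene with several such clusters, which applied only to Wnt4, was represented by the one with the highest mean over all arrays. The members comprised 9 ligands, 13 receptors and co-receptors, 7 secreted antagonists, 4 intracellular components and 5 feedback genes and TCF factors.

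The samples came from wild-type C57BL/6 male mice aged 8 weeks. The control group of 4 samples had normal diet, and the other 4 samples had cuprizone, a copper chelator that damages oligodendrocytes, at 0.25% for 1 week. Corpus callosum, the white matter tract between the hemispheres, was dissected by hand after perfusion with saline, and 150 ng of total RNA per sample went onto Affymetrix Mouse Gene 1.0 ST arrays. The samples are labelled as biological replicates 1 to 4 of each diet. Whether each is a single animal is not stated, so the p-values measure the spread between these samples. All values below are log2 levels as deposited, so that a difference of 1 is a doubling, and differences are cuprizone minus control. Levels of single genes are not compared with each other, since probes differ in their response. For the same reason, a level set against the median of all clusters is only a rough guide. The study's title concerns the step from dying oligodendrocytes to inflamed lesions, and the comparison addresses the tissue early in that course.

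Wnt proteins are secreted lipid-modified ligands. In the β-catenin branch they bind a Frizzled receptor together with Lrp5 or Lrp6, a complex of Axin, APC and kinases stops degrading β-catenin, and β-catenin joins the TCF and LEF factors on DNA. Genes such as Axin2, Nkd1, Notum and Apcdd1 are induced by the pathway in many tissues and restrain it. Other branches, often used by Wnt5a with Ror1 and Ror2, act without β-catenin through Dishevelled and small GTPases. In white matter, strong β-catenin signalling is known to hold oligodendrocyte progenitors back from maturing, and Wnt7a and Wnt7b of neural cells instruct the brain vasculature.

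The promoters of the called members that had a RefSeq window (build GRCm38.p6) are shown here, because these genes moved in the comparison below. Each window runs from 250 bases before to 50 bases after the start site, and is written 5′ to 3′ on the strand of the gene. Capitals mark CTTTGA or its reverse complement, the core letters that TCF and LEF factors bind, searched on both strands. The Fzd1 window is chr5:4758167-4758466 (minus strand), the Daam2 window chr17:49564288-49564587 (minus strand, the first of 2 listed) and the Nkd1 window chr8:88527383-88527682 (plus strand).
Fzd1: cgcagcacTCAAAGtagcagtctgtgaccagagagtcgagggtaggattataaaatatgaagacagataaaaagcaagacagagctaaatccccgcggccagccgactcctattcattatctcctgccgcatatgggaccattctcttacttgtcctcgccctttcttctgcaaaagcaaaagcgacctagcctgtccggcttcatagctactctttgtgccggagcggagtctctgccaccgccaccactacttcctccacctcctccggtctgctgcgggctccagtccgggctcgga
Daam2: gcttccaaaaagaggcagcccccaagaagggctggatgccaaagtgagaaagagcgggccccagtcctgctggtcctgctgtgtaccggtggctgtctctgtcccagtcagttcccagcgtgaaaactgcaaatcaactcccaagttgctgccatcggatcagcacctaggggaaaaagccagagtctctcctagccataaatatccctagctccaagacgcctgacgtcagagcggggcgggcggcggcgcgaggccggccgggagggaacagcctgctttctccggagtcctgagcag
Nkd1: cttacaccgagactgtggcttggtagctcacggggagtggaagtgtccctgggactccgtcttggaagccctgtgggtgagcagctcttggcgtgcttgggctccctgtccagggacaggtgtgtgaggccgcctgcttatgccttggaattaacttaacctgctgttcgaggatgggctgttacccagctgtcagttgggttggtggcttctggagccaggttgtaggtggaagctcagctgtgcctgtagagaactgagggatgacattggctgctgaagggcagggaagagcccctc
The Fzd1 window held 1 match, on the opposite strand, that began at base 9 of the window, and the windows of Daam2 and Nkd1 held none. Of the 25 members with at least 1 window, 5 had a match: Wnt5b, Fzd1, Ror1, Dkk1 and Lef1. By window this was 5 of 33 (15.2%), against 16.0% of all 32851 windows of the same length. These are matches of letters only, and a window without one says nothing about binding elsewhere.

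Over the arrays as a whole, the median level of the gene-named clusters lay between 7.44 and 7.49, and their median log2 difference was -0.01. Mature oligodendrocyte markers, of which all 12 measured fell at a median difference of -2.18, were high in the controls, as defining transcripts of white matter are. Neuronal transcripts were also present: Snap25, a synaptic protein, lay between 12.70 and 12.91 on all 8 arrays, and no marker of cortical (9 measured) or striatal neurons (5 measured) was called. Microglial markers rose in 7 of 9, astrocyte markers rose in 5 and fell in 2 of 10, and 3 of 10 markers of oligodendrocyte progenitors fell, 1 of 9 markers of pericytes and smooth muscle rose, and none of 10 endothelial, 8 meningeal or 7 blood leukocyte markers was called. Choroid plexus and ependymal markers, of which none of 10 was called, varied within both groups. Their mean ran from 7.15 to 8.27 in controls and from 7.21 to 8.03 with cuprizone, highest on replicates 2 and 4 of each diet. The choroid plexus genes Ttr, Folr1, Kl, Clic6 and Kcnj13 were highest on these replicates in both diets. Otx2 and the ependymal genes Foxj1, Ccdc153, Tmem212 and Rsph1 were not. Cuprizone replicates 2 and 3 stood apart on markers of thalamic neurons, with list means of 8.33 and 8.42 against 7.37 to 7.93 on the other 6 arrays. Among the controls this mean was highest on replicate 1, at 7.93, against 7.59 to 7.69 on the others. The mean of the striatal markers was lowest on cuprizone replicates 2 and 3, at 10.61 and 10.58, against 10.79 to 11.00 on the other 6. Results that move with cuprizone replicates 2 and 3 are also given without them. As every sample is a piece of tissue, fewer cells of a type and less RNA per cell cannot be told apart.

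After 1 week of cuprizone most of the Wnt genes stayed within the spread of the arrays. The receptors Fzd1 and Fzd8 rose, and Daam2, a partner of Dishevelled, and Nkd1, a feedback inhibitor, fell. No ligand and no secreted antagonist was called, and neither was Axin2, the most widely used readout of β-catenin signalling. Together 4 of 38 members (10.5%) passed an adjusted p of 0.05 in limma, a linear model with moderated variances fitted over all 23410 clusters, against 8.22% of all clusters. By direction, 2 of 38 were higher, against 4.71% of all clusters, and 2 of 38 were lower, against 3.52%. The share of called members was thus near that of all clusters, and is no result about the pathway as a whole. The median difference of the 38 members was -0.04.

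The control and cuprizone arrays of 6 members (15.8%) did not overlap, where 15.3% of all clusters had groups apart. For Fzd1 and Fzd8 all cuprizone arrays were higher (8.24% of all clusters), and for Fzd2, Fzd9, Daam2 and Nkd1 all were lower (7.09% of all clusters). At the gene level 4 of the 6 were Frizzled receptors, out of 9 measured. Of the 34 members that were not called, 3 had an unadjusted p under 0.05 in limma, namely Wnt3, Wnt7a and Fzd2. The share of all clusters at that level was not counted, so the number is no result about the members.

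**Figure D1:**
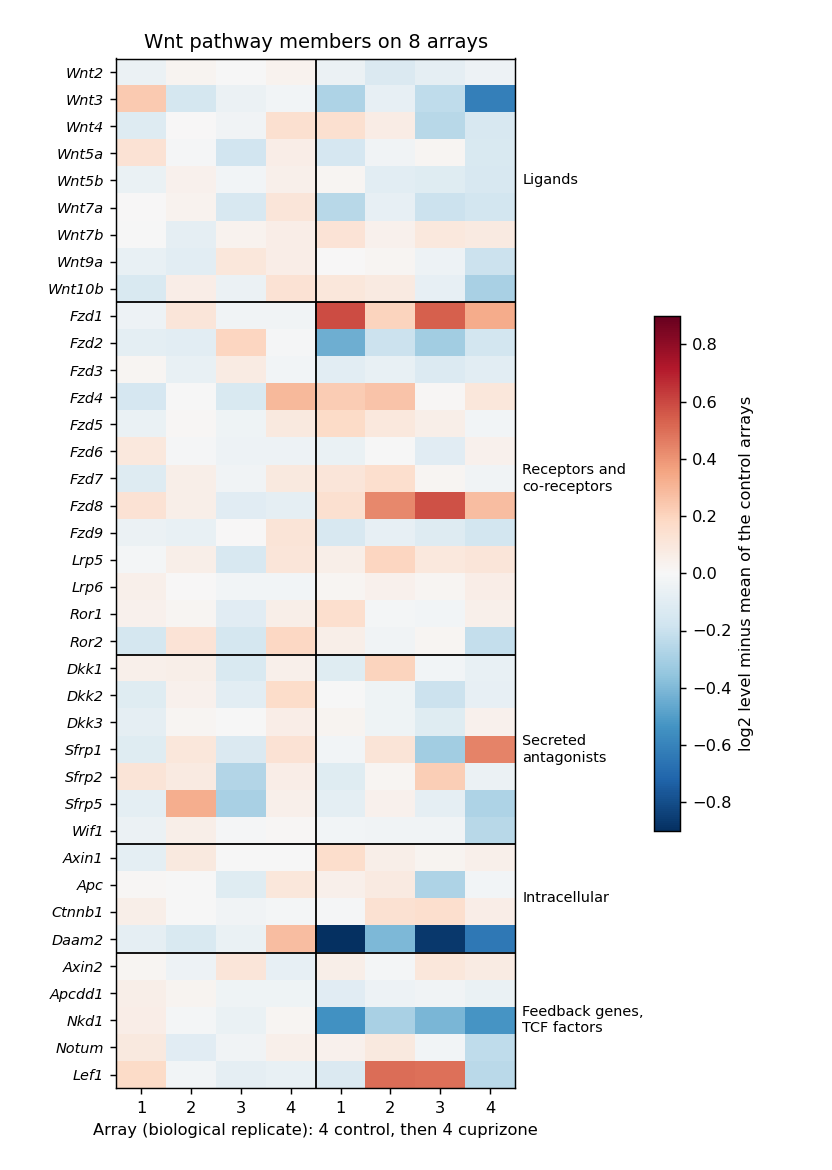
Log2 level of each of the 38 members (rows, grouped by role) on the 8 arrays (columns), minus the mean of the 4 control arrays of that gene; red is higher and blue is lower. Daam2 and Nkd1 are blue and Fzd1 and Fzd8 red on all 4 cuprizone arrays, while Lef1 is darkest red on cuprizone replicates 2 and 3 and blue on replicates 1 and 4.

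The ligands showed no called difference. Of 9, none was higher, against 4.71% of all clusters, and none lower, against 3.52%. With so few genes, the lack of a call does not set the ligands apart from all clusters. Their median difference was -0.08, against -0.01 for all gene-named clusters, and 8 of the 9 point estimates lay below 0. Wnt3, which activates the β-catenin branch, had the largest of them. Its control arrays read 7.25, 6.86, 6.96 and 6.99, and its cuprizone arrays 6.74, 6.94, 6.79 and 6.41. The groups overlapped through cuprizone replicate 2, and the lowest value was that of cuprizone replicate 4. The difference was -0.30 ± 0.11 (SE, n = 4 each, limma adjusted p = 0.160).

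Wnt7a, a ligand of neural cells that acts on brain vessels, read 6.98, 7.01, 6.83 and 7.08 in controls and 6.72, 6.90, 6.78 and 6.81 with cuprizone. Control replicate 3 lay below cuprizone replicate 2, so the groups overlapped. The difference was -0.17 ± 0.07 (limma adjusted p = 0.167). Its close relative Wnt7b had the one positive estimate among the ligands, 0.08, with a 95% interval of -0.03 to 0.20.

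For the β-catenin-independent ligands Wnt5a and Wnt5b the differences were -0.08 each, with intervals of -0.24 to 0.09 and -0.21 to 0.04. Wnt2 differed by -0.08, Wnt9a by -0.05 and Wnt10b by -0.05. Wnt4 differed by -0.05 at its brighter cluster and by -0.11 at its dimmer one, and neither was called. Across the ligands the 95% intervals reached from -0.55 to 0.20, so that a doubling or a halving lay outside each of them. Only Wnt4 had a mean level above the median of all gene-named clusters, 7.45. The table gives no detection calls, so whether the other 8 ligands stood above background is not known, and array values near background understate a change.

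**Figure D2:**
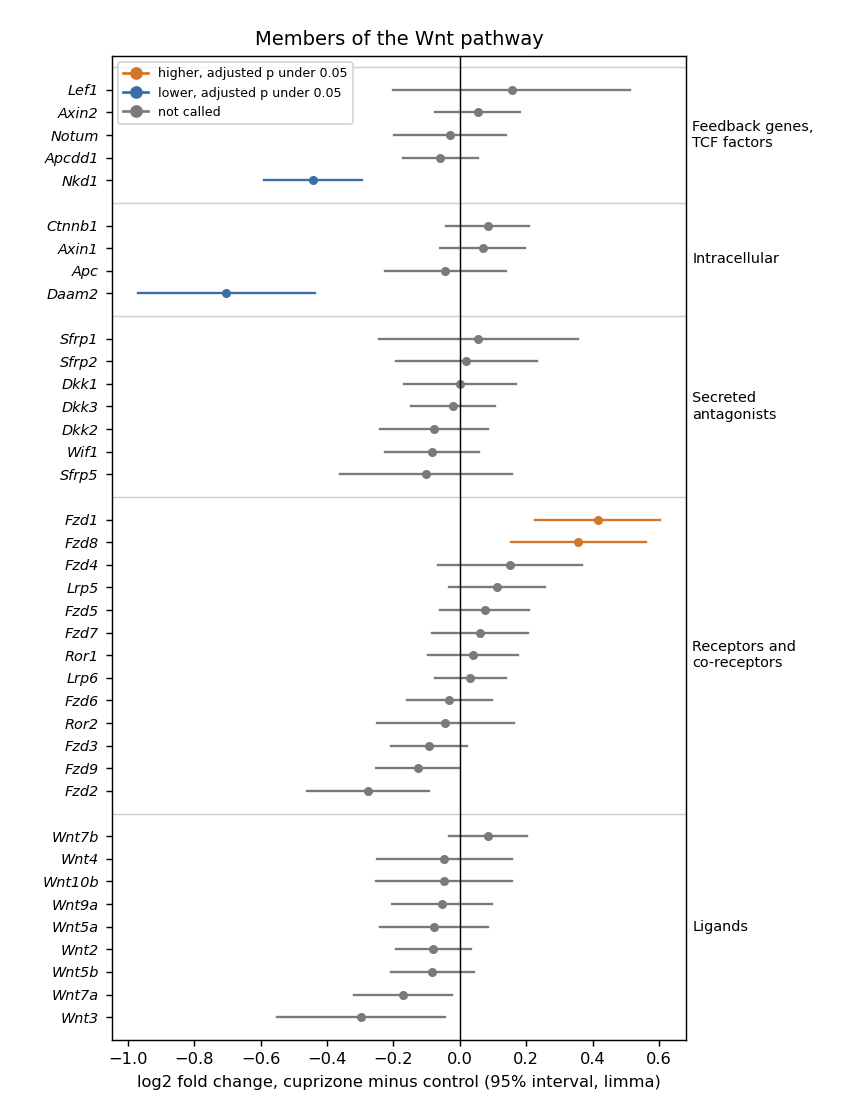
Log2 fold change of each member, cuprizone minus control, as a point with its 95% interval from limma (4 arrays a group), grouped by role. Fzd1 and Fzd8 lie to the right (orange), Daam2 and Nkd1 to the left (blue), and the other 34 members are grey, not called.

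Among the receptors, Fzd1 and Fzd8 rose and no other Frizzled, Lrp or Ror gene was called. Thus 2 of 13 were higher, against 4.71% of all clusters, and none lower, against 3.52%. The median difference was 0.04. Fzd1 (transcript cluster 10527936), a Frizzled that couples to the β-catenin branch, read 7.71, 7.86, 7.72 and 7.72 in controls. With cuprizone it read 8.34, 7.95, 8.29 and 8.09. Every cuprizone array was higher than every control array, and the closest were control replicate 2 and cuprizone replicate 2. The level rose from 7.75 ± 0.07 to 8.17 ± 0.18 (SD, n = 4 each), 1.33-fold, with a log2 difference of 0.42 ± 0.09 (SE, limma adjusted p = 0.0116). When any 1 array was left out, the difference lay between 0.36 and 0.49 and stayed called.

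Fzd8 (transcript cluster 10453738), of the subfamily it forms with Fzd5, read 7.14, 7.07, 6.91 and 6.93 in controls. With cuprizone it read 7.16, 7.45, 7.58 and 7.29. The groups were apart by a narrow margin, between control replicate 1 and cuprizone replicate 1. The level rose 1.28-fold, by 0.36 ± 0.09 (limma adjusted p = 0.0376). This call depended on single arrays: it was lost when control replicate 2, 3 or 4 or cuprizone replicate 2, 3 or 4 was left out, with limma adjusted p between 0.0559 and 0.104. It was also lost with the mean of the choroid plexus markers as a covariate (limma adjusted p = 0.0534). Without both cuprizone replicates 2 and 3, which stood apart on thalamic markers as described for Lef1, the difference was 0.21 (limma adjusted p = 0.246). With the mean of those markers as a covariate it was 0.28 (limma adjusted p = 0.0420). Cuprizone replicates 2 and 3 also held the highest values of Fzd8, so leaving them out lowers its estimate whatever the cause.

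Fzd2 and Fzd9 went the other way without passing the threshold. Fzd2 (transcript cluster 10381603), from the subfamily of Fzd1, read 7.64, 7.63, 7.93 and 7.72 in controls and 7.29, 7.54, 7.42 and 7.57 with cuprizone. All cuprizone arrays lay below all control arrays, at -0.28 ± 0.08 (limma adjusted p = 0.0702). Among the clusters brighter than the median alone, fitted and adjusted apart from the rest, the adjusted p in limma was 0.0375. Fzd9 read 6.96, 6.95, 7.01 and 7.13 in controls and 6.86, 6.94, 6.89 and 6.85 with cuprizone, a difference of -0.13 ± 0.06 (limma adjusted p = 0.246). Its groups were apart by a very small step, between control replicate 2 and cuprizone replicate 2.

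Within the subfamilies the estimates differed in sign or size. Fzd1, Fzd2 and Fzd7, which form one subfamily, stood at 0.42, -0.28 and 0.06, and the differences between these genes were not tested. Fzd8 and Fzd5 stood at 0.36 and 0.07. Fzd3 and Fzd6, which serve planar polarity and axon guidance, stood at -0.09 and -0.03. Fzd4, the receptor for norrin on vessels, stood at 0.15, with an interval of -0.07 to 0.37.

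The co-receptors showed little movement. Lrp6, needed for β-catenin signalling together with a Frizzled, had a difference of 0.03 with an interval of -0.08 to 0.14, and Lrp5 one of 0.11 with an interval of -0.03 to 0.26. The receptor kinases for Wnt5a, Ror1 and Ror2, differed by 0.04 and -0.04. Lrp6 was the receptor gene with the narrowest interval, and its 8 arrays lay between 8.70 and 8.78.

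**Figure D3:**
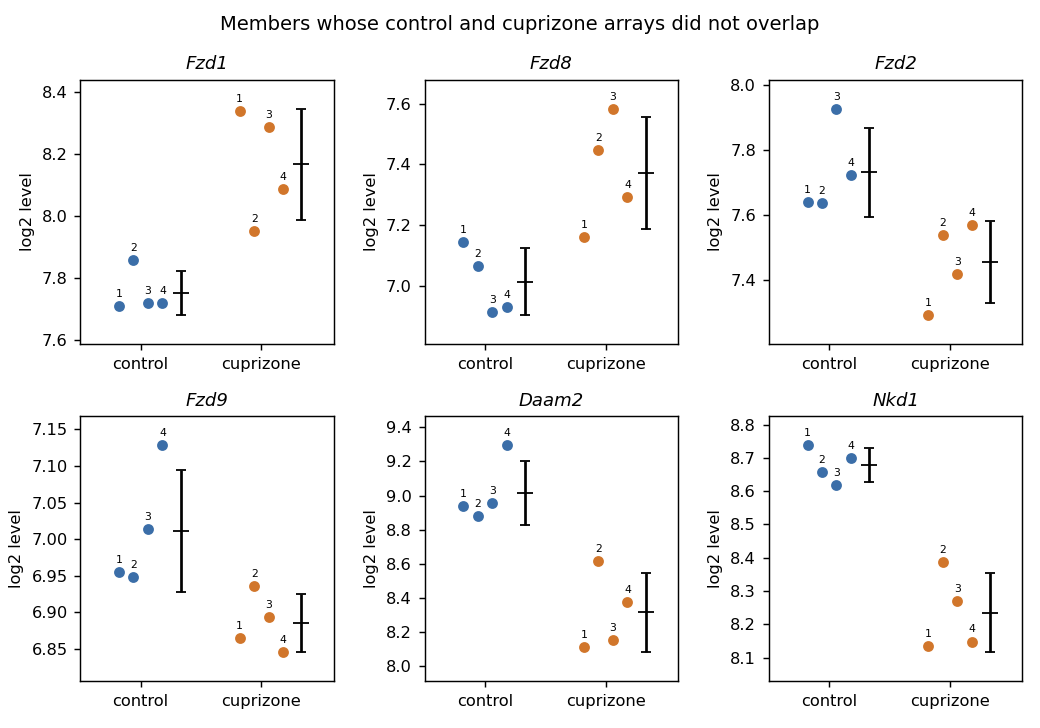
Log2 level of the 6 members whose control (blue) and cuprizone (orange) arrays did not overlap; points are single arrays numbered by replicate, and the black bar is the mean with its SD (n = 4). Fzd1 and Fzd8 are higher and Fzd2, Fzd9, Daam2 and Nkd1 lower on every cuprizone array; Fzd2 and Fzd9 were not called. The vertical axes differ between panels and do not start at 0.

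The secreted antagonists were not called, with 0 of 7 past the threshold in limma, against 8.22% of all clusters. With so few genes, this does not set them apart from all clusters. Also 0 had an unadjusted p under 0.05 in limma, a level at which the share of all clusters was not counted. The median difference of the antagonists was -0.02. Dkk1, which blocks Lrp5 and Lrp6, differed by 0.00, with an interval of -0.17 to 0.17. Dkk2 differed by -0.08. Dkk3, a divergent member of the Dickkopf family that neurons express, lay between 9.75 and 9.92 on all arrays and differed by -0.02.

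The secreted Frizzled-related proteins bind Wnts outside the cell. Sfrp1 varied more on the cuprizone arrays, at 7.49, 7.62, 7.20 and 7.96, than in controls, at 7.40, 7.62, 7.38 and 7.64. In both diets it was highest on replicates 2 and 4, as was the mean of the choroid plexus and ependymal markers, through its choroid plexus genes. The part of choroid plexus tissue in the spread of Sfrp1 was not tested. Over all alternatives run, which included a fit with that mean as a covariate, the difference of Sfrp1 lay between -0.07 and 0.21. It was called in none. The difference of Sfrp1 was 0.06 with an interval of -0.24 to 0.36. Sfrp2 differed by 0.02 and Sfrp5 by -0.10. Wif1, another extracellular Wnt-binding inhibitor, differed by -0.08 with an interval of -0.22 to 0.06. Of the 7 antagonists, only Dkk3 and Sfrp1 had mean levels above the median of all gene-named clusters.

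Of the intracellular components, Daam2 fell and the core of the β-catenin pathway did not pass the threshold. Daam2 (transcript cluster 10451679) encodes a formin that binds Dishevelled and is known as a modulator of Wnt signalling in the oligodendrocyte lineage. It read 8.94, 8.88, 8.95 and 9.29 in controls and 8.11, 8.61, 8.15 and 8.37 with cuprizone. Every cuprizone array lay below every control array, with the highest cuprizone value on replicate 2. The level fell from 9.02 ± 0.19 to 8.31 ± 0.23 (SD, n = 4 each), a log2 difference of -0.70 ± 0.12 (SE, limma adjusted p = 0.00406) or 1.63-fold. It was the largest change among the 38 members, and lay between -0.80 and -0.61 when any 1 array was left out, called each time.

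Ctnnb1, which encodes β-catenin itself, read 11.28, 11.22, 11.19 and 11.20 in controls and 11.21, 11.36, 11.37 and 11.28 with cuprizone. The groups overlapped, and the difference was 0.08 with an interval of -0.04 to 0.21. Without cuprizone replicates 2 and 3, its highest arrays, it was 0.02. Axin1, the scaffold of the degradation complex, differed by 0.07 (interval -0.06 to 0.20), and Apc, its large partner, by -0.04 (interval -0.23 to 0.14). Transcript levels do not report on β-catenin protein, whose amount the pathway sets by degradation.

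Of 5 measured feedback genes and TCF factors, 1 fell (3.52% of all clusters fell) and none rose, at a median of -0.03. Nkd1 (transcript cluster 10573779), which binds Dishevelled and restrains the pathway, read 8.74, 8.66, 8.62 and 8.70 in controls and 8.13, 8.39, 8.27 and 8.15 with cuprizone. The controls lay close together and well above all cuprizone arrays. The level fell from 8.68 ± 0.05 to 8.23 ± 0.12 (SD, n = 4 each), a log2 difference of -0.44 ± 0.07 (SE, limma adjusted p = 0.00181) or 1.36-fold. It stayed called when any 1 array was left out.

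Axin2, the feedback scaffold, read 7.42, 7.36, 7.51 and 7.33 in controls and 7.46, 7.39, 7.51 and 7.48 with cuprizone. The arrays of the groups lay within the same range. The difference was 0.05 ± 0.06 with an interval of -0.08 to 0.18 (limma adjusted p = 0.690). Apcdd1, a membrane inhibitor found on brain vessels and glia, differed by -0.06 (interval -0.17 to 0.05). Notum, an enzyme that removes the lipid from Wnt proteins, differed by -0.03 (interval -0.20 to 0.14).

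The mature oligodendrocyte markers moved beside Daam2 and Nkd1. Their mean lay between 10.86 and 11.10 in controls, and at 8.18, 9.02, 8.81 and 8.61 on cuprizone replicates 1 to 4. Daam2, Nkd1 and the marker mean were each highest on replicate 2 and lowest on replicate 1 among the cuprizone arrays. The part of the oligodendrocyte markers' fall in that of these genes was not tested. The mean of the microglial markers was higher on all cuprizone arrays, as were Fzd1 and Fzd8, at 8.12 to 8.27 in controls and 8.73 to 9.09 with cuprizone. Within the cuprizone group Fzd1 was highest on replicate 1, where the microglial mean, like that on replicate 2, was at the low end of the group. Fzd8 was highest on replicate 3, as was the microglial mean, and lowest on replicate 1. The astrocyte markers had means of 9.61 to 9.73 in controls and 9.73 to 9.98 with cuprizone, and moved both ways: Gfap, a filament gene, rose by 0.96, and Slc1a2, a glutamate transporter, fell by 0.60 on the log2 scale. The part of either cell type in the rise of the receptors was not tested.

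Lef1, a nuclear partner of β-catenin, had the largest SD among the cuprizone arrays of all members, 0.40. It read 7.82, 7.62, 7.57 and 7.58 in controls and 7.52, 8.15, 8.14 and 7.40 with cuprizone. Cuprizone replicates 2 and 3 were above, and replicates 1 and 4 below, every control array. The difference was 0.16 ± 0.16 (limma adjusted p = 0.668). Tcf7l2, the related factor of new oligodendrocytes and of the thalamus, was likewise highest on cuprizone replicates 2 and 3, at 8.74, 8.45, 8.38 and 8.63 in controls and 8.49, 9.53, 9.49 and 8.39 with cuprizone (difference 0.43, limma adjusted p = 0.370). Without these arrays, which held its highest values, the estimate of Tcf7l2 was -0.11 (limma adjusted p = 0.675). Leaving out the highest values of a group lowers its estimate whatever the cause.

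Both factors mark thalamic neurons in the adult brain, and a list of 15 other thalamic markers, chosen after this pattern was seen, was therefore set beside them. Prkcd, a kinase of thalamic relay neurons, read 10.63 and 10.51 on cuprizone replicates 2 and 3, and from 8.46 to 9.72 on the other 6 arrays. The mean of the list was 8.33 and 8.42 on these arrays, 7.59 and 7.37 on cuprizone replicates 1 and 4, and between 7.59 and 7.93 in controls. Among the controls it was highest on replicate 1, as were Prkcd, Lef1 and Tcf7l2. On both cuprizone replicates 2 and 3, 12 of the 15 markers were higher than on all 6 others. So were 4.68% of all gene-named clusters and, among the members, Lef1, Fzd8 and Ctnnb1. None of the 15 markers was called. The part of thalamic tissue in the values of Lef1 was not tested. The fits that follow were chosen after its values were seen, and leaving out its highest arrays lowers the estimate whatever the cause. With the mean of the list as a covariate the difference of Lef1 was -0.02 and that of Tcf7l2 0.16, and without the 2 arrays that of Lef1 was -0.19. Fzd1, Daam2 and Nkd1 stayed called in limma without the 2 arrays, at 0.46, -0.77 and -0.54.

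**Figure D4:**
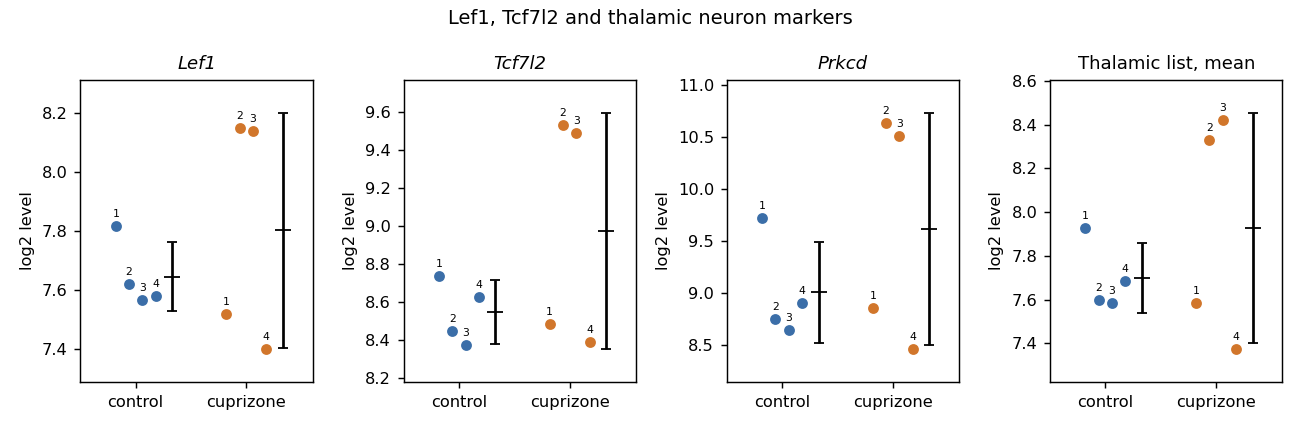
Log2 level of Lef1, Tcf7l2, the thalamic marker Prkcd and the mean of 15 thalamic markers on each array (control blue, cuprizone orange, numbered by replicate), with mean and SD (n = 4) as a black bar. In all 4 panels cuprizone replicates 2 and 3 stand above the other 6 arrays. The vertical axes differ between panels and do not start at 0.

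Among other genes of the pathway, 5 of 94 measured rose and 7 fell (12.8% called, against 8.22% of all clusters, of which 4.71% were higher and 3.52% lower), with a median difference of -0.05. These were grouped by role. As the lists were chosen with earlier results of these data known, the share called is no unbiased comparison with all clusters. The largest rises were in nuclear and target genes. Cd44, a hyaluronan receptor of reactive glia that Wnt and many other signals induce, read 6.26, 6.96, 6.26 and 6.19 in controls and 8.41, 7.98, 8.63 and 8.32 with cuprizone, 3.78-fold higher (limma adjusted p = 6.31e-05). Myc, a growth regulator with equally many inputs, rose 2.46-fold, from 6.94 ± 0.22 to 8.24 ± 0.32 (SD, n = 4 each, limma adjusted p = 0.000332). Both genes were higher on every cuprizone array.

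Tle3, a co-repressor that TCF factors recruit, rose by 0.59 ± 0.08 (limma adjusted p = 0.000678), and Ctnnbip1, which keeps β-catenin from TCF factors, fell by 0.22 on the log2 scale (limma adjusted p = 0.0432). With these, 3 of 19 nuclear and target genes rose, against 4.71% of all clusters, and 1 fell, against 3.52%. Ccnd1, the cyclin often cited as a target, was higher on all cuprizone arrays by 0.23 without passing the threshold (limma adjusted p = 0.169). Sp5, Tcf7l1 and the co-activators Bcl9 and Pygo2 were not called.

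At the cell surface 2 of 22 genes rose, against 4.71% of all clusters, and 1 fell, against 3.52%. Gpc4, a glypican that can hold Wnts and other growth factors at the membrane, read 7.60, 7.34, 7.24 and 7.31 in controls and 8.35, 8.04, 8.23 and 8.36 with cuprizone. All cuprizone arrays were higher, by 0.87 ± 0.09 (1.83-fold, limma adjusted p = 0.000184). Ryk, a Wnt receptor of axons, rose by 0.24 ± 0.06 (limma adjusted p = 0.0302). Rnf43, a ubiquitin ligase that removes Frizzled proteins from the surface, fell by 0.27 on the log2 scale (limma adjusted p = 0.0255).

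Inside the cell 3 of 25 fell, against 3.52% of all clusters, and none rose. Daam1, the paralog of Daam2, read 9.77, 9.60, 9.70 and 9.75 in controls and 9.28, 9.37, 9.36 and 9.24 with cuprizone. Its groups were apart, at -0.39 ± 0.06 (limma adjusted p = 0.0019). Rhou, a small GTPase inducible by Wnt, differed by -0.54 ± 0.09 (limma adjusted p = 0.00294), and Dact3, a Dishevelled antagonist, by -0.23 ± 0.06 (limma adjusted p = 0.0455). The kinases Gsk3b and Csnk1a1 and the 3 Dishevelled genes were not called, at differences between -0.06 and 0.02.

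Of 17 other ligands and secretion factors only Rspo2, which strengthens Wnt signalling at its receptors, was called, at -0.28 ± 0.08 (limma adjusted p = 0.0498). Across all clusters 3.52% were called lower. Wls and Porcn, needed by cells to secrete Wnts, had differences of -0.18 each and were not called (limma adjusted p = 0.148 and 0.0721). Of 11 other antagonists only Frzb was called, at -0.43 ± 0.11 (limma adjusted p = 0.0325), and its groups overlapped between control replicate 1 and cuprizone replicate 4. Rspo2, Frzb, Ryk, Rnf43, Dact3 and Ctnnbip1 each lost their call when 1 of several arrays was left out. The number of pathway genes called lower ranged from 2 to 5 over the 8 such fits, with 2 when control replicate 2, control replicate 4 or cuprizone replicate 3 was left out and 3 without control replicate 1, control replicate 3 or cuprizone replicate 2. Cd44, Myc, Tle3, Gpc4, Daam1 and Rhou stayed called in every one. Without both cuprizone replicates 2 and 3 these 6 also stayed called and the other 6 did not, with Rspo2 at -0.16 (limma adjusted p = 0.320) and Frzb at -0.29 (limma adjusted p = 0.249).

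**Figure D5:**
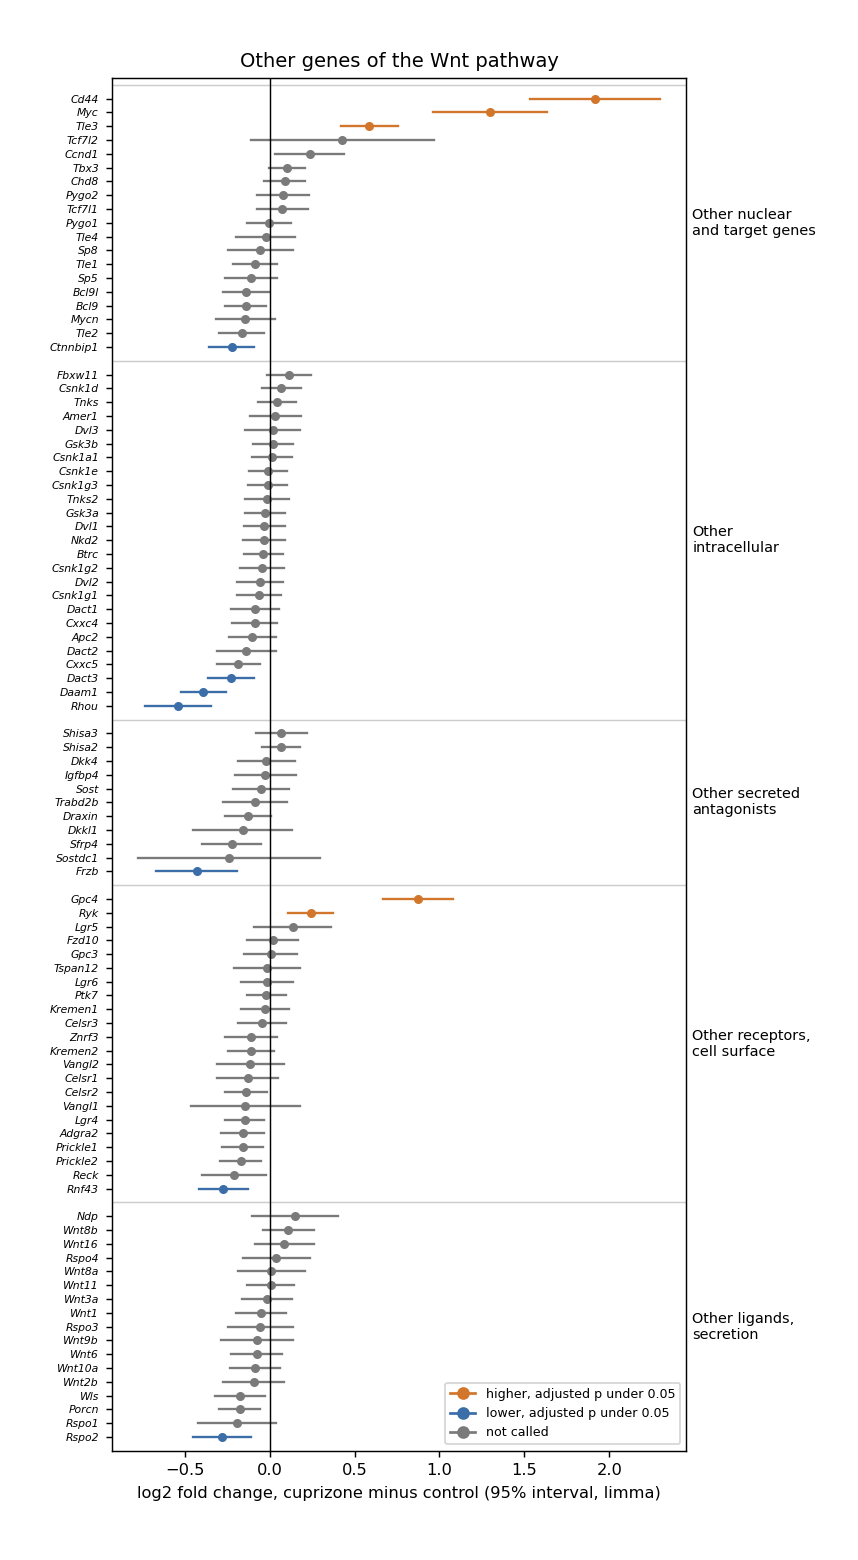
Log2 fold change of the 94 other genes of the pathway, cuprizone minus control, with 95% intervals from limma (4 arrays a group), grouped by role; orange is called higher, blue called lower and grey not called. Cd44, Myc, Gpc4 and Tle3 lie farthest to the right, and Rhou, Frzb and Daam1 farthest to the left.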

How the data were processed

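Values are log2 signals per transcript cluster, as deposited by the authors in one table of 28944 clusters on 8 arrays. The submitters' processing notes name Affymetrix Expression Console, RMA and Transcriptome Analysis Console, without versions or roles. Arrays brought to nearly one distribution hide a shift shared by most genes, and folds of dim clusters are compressed. Scanner files and scan dates were not used here, so no batch could be tested. The number of arrays limits the precision.

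Clusters were named through the platform annotation: 21789 had 1 symbol, 1621 several and 5534 none. All 38 member symbols matched the current RefSeq symbol of their Entrez identifier. The 23410 named clusters were tested with limma 3.58.1 (R 4.3.3), cuprizone against control, two-sided, no covariate, with Benjamini-Hochberg adjustment over all of them and a threshold of 0.05. Every adjusted p in the text is from limma. The fit was tested on simulated data. Same-numbered arrays had correlations of -0.19 to 0.21 in their deviations over clusters, 1 of 4 above 0.1. The labels state no pairing, so no block was used in the main fit.

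Members and lists were chosen with earlier results of these data known. All members are named. Those called, or with groups apart, are given by array; some others by array as well, chosen after their values were seen, as were the thalamic list, its covariate, the choroid plexus covariate and the fit without cuprizone replicates 2 and 3. The other pathway genes named are those called, or chosen after their values were seen. Alternatives were the replicate block, leaving out each array, trend and robust prior, median centring, quantile normalization again, only clusters above the median level, array weights, all clusters, and a gene's dimmest cluster.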

Additional observations from a re-analysis of the deposited data

Results flagged for a closer look

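In 4 of 76 groups of 4 arrays (38 members, both diets), a single array lay far from the other 3 by Dixon's ratio; chance alone flags about 5% of groups, or 3.8 here. The second control replicate gave 7.86 for Fzd1, while its 3 companions gave 7.71 to 7.72. For Dkk1 the third control replicate gave 6.08 and the others 6.26 to 6.27. The same array gave 6.18 for Sfrp2, where the others gave 6.51 to 6.56. Wif1 read 6.08 on the fourth cuprizone array and 6.29 to 6.30 on its companions. Without control replicate 2 the difference of Fzd1 was 0.45 and stayed called (limma adjusted p = 0.0169), over a range of 0.00263 to 0.0402 in all alternatives run.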

How the results depend on the processing

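Fzd1, Daam2 and Nkd1 kept their direction and their call in limma under all alternatives in which they were tested. Of the 34 uncalled members 32 were called in none of them; the exceptions were Fzd2 among the clusters above the median level and Wnt3 with the thalamic mean as a covariate (-0.39, limma adjusted p = 0.0243). The sign changed in at least 1 alternative for 12 uncalled members, among them Dkk1, Sfrp2, Dkk3 and Lef1. The receptors called higher were 1 instead of 2 with the replicate block, among the clusters above the median level (where Fzd8 is not tested), with the choroid plexus mean as a covariate and without cuprizone replicates 2 and 3, and 1 to 2 when any 1 array was left out. The receptors called lower were 1 instead of 0 among the clusters above the median level, and the ligands called lower 1 instead of 0 with the thalamic mean as a covariate. The other pathway genes called lower were 7 without any of these changes, 3 with the replicate block, 4 over all clusters and with either covariate, 2 without cuprizone replicates 2 and 3, and 2 to 5 when any 1 array was left out. Over all clusters the counts of higher and lower calls moved to 795 to 1122 and 609 to 741 without 1 array. Where no cause is named, the cause was not tested. The paired fit, with the replicate number as a block, gave Fzd8 a limma adjusted p of 0.0864. Whether the numbers pair the samples is not stated in the labels. Signal over background is not known for any member.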
